A study of Mus musculus with 2 samples.

Results

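The genes described here are 10 genes of the p53 response and of cyclin-dependent kinase (CDK) inhibition, namely Fas, Cdkn1a, Cdkn2a, Cdkn2b, Gadd45a, Gadd45b, Gadd45g, Sesn1, Mdm2 and Ccng1. They were chosen by symbol, as every non-control spot whose gene name is 1 of these 10, and all 10 were found among the 29608 gene names of the array, on 23 spots and 14 probes. The cells were 661W, a mouse line named for its photoreceptor origin, grown for 3 days in DMEM/F12 medium without choline or with it (8.98 g/L per the labels). The labels give the line's usual medium as DMEM/F12 with 10% fetal bovine serum, penicillin and streptomycin, and do not say whether serum was present during the 3 days. Each group is 1 single-colour Agilent array, and both arrays were on 1 slide. There are no replicates, so the spread between cultures is unknown and nothing below is tested. The design text mentions pooling from 4 dishes without saying whether that was per group. As background, 661W was derived from a retinal tumour of a mouse carrying the SV40 large T antigen under the human IRBP promoter, and large T binds both p53 and the RB proteins. The status of p53 in these cells was not measured here.

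As background, p53 is a transcription factor that is held low by the ubiquitin ligase MDM2 and is stabilised when DNA is damaged or growth signals are abnormal. It then switches on genes that stop the cell cycle, repair DNA or start cell death, and it also switches on Mdm2, which closes a feedback loop. The CDK inhibitors act on the same decision at another level: p21 (Cdkn1a), p15 (Cdkn2b) and p16 (1 product of Cdkn2a) keep CDKs from phosphorylating RB, while p19ARF, the other product of Cdkn2a, binds MDM2 and frees p53.

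Without choline, 6 of the 10 genes were higher by 1.5-fold or more, 1 was lower by that much and 3 were closer together. Among all 19818 genes measured on both arrays, the shares higher and lower by 1.5-fold or more were 14.8% and 14.1%. The higher genes were Fas, Cdkn2b, Gadd45g, Sesn1, Cdkn2a and Gadd45b, and the lower gene was Gadd45a. The median log2 difference of the 10 genes, choline-deficient minus choline-sufficient, was 0.85, against -0.10 over all measured genes. At 2-fold, 5 of the 10 were higher, against 7.67% of all genes, and 1 was lower, against 3.88%. The 10 genes were chosen with earlier results of these data known, so these are not independent comparisons. A gene was measured when at least 1 probe was well above background on both arrays. All 10 passed that filter on both arrays and 7 of them had a single probe. In such bulk RNA, more cells with a transcript and more of it per cell cannot be told apart.

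**Figure D1:**
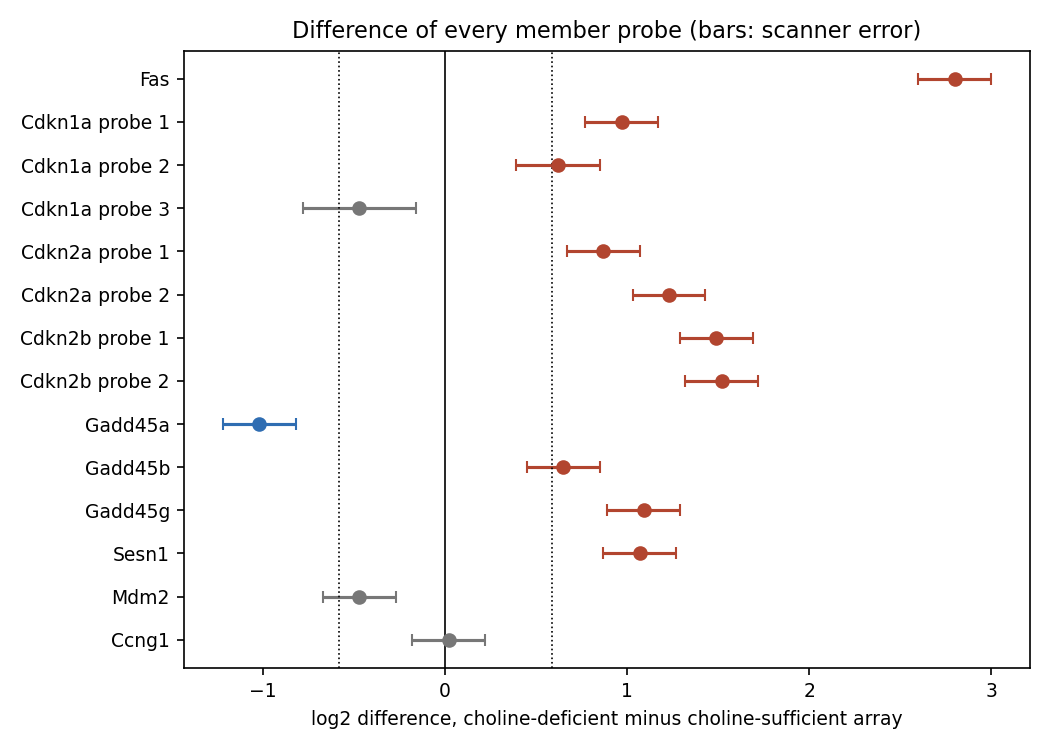
Log2 difference (choline-deficient minus choline-sufficient array) of each of the 14 probes of the 10 genes, with bars for the scanner software's error of the difference and dotted lines at 1.5-fold. Probes of 1 gene are numbered from the brighter to the dimmer signal. Fas lies at 2.80, the probes of Cdkn2a and Cdkn2b lie between 0.87 and 1.52, Gadd45a lies at -1.02, and Cdkn1a has probes on both sides of 0.

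Levels below are processed signals as deposited, and differences are log2 values after each array was set to its 75th percentile (1609.4 on the choline-deficient and 1279.6 on the choline-sufficient array). The error after each ± comes from the scanner software, mostly 0.20, and covers the spot measurement but not variation between cultures. Scaling each array to its median moved all genes by -0.12, and scaling to spike-in probes by 0.27. The share of higher genes among those at least 1.5-fold apart was 51.1% as scaled here, 37.1% with median scaling and 80.3% with spike-in scaling. Probe positions are on mouse build mm9.

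Fas, the gene of the death receptor that starts caspase activation when it meets its ligand, had the largest difference of the 10. Its probe (NM_007987, chromosome 19, 34402164 to 34402223) read 2557 on the choline-deficient and 292.8 on the choline-sufficient array. After scaling it was 6.94-fold higher without choline, a log2 difference of 2.80 ± 0.20, and 83 of the 19818 measured genes (0.42%) had a larger one. It lay between 2.65 and 3.07 under the other 10 ways of processing. The genes that act next to the receptor did not share its size of difference. Of 16 genes written for the FAS pathway 15 were measured, of which 3 were at least 1.5-fold higher and 1 lower, with a median of 0.01. The adaptor gene Fadd differed by -0.04 ± 0.20 and the initiator caspase gene Casp8 by -0.02 ± 0.20 (both named after their values were seen). The higher genes were Faim2, an inhibitor of FAS-driven death in neurons (1.23 ± 0.24), the kinase gene Ripk1 (0.82 ± 0.20) and the effector caspase gene Casp6 (0.62 ± 0.20). The death receptor gene Tnfrsf21 was lower (-0.71 ± 0.21). Of these, Faim2 and Tnfrsf21 were dim, at log2 levels of -5.21 and -5.46 without choline and -6.44 and -4.75 with it. The ligand gene Fasl was well above background on the choline-deficient array only. Its log2 levels were -7.94 there and -8.12 on the choline-sufficient array, 1.13-fold apart. Both lie near the dimmest signals called well above background, so no direction is read from them.

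Cdkn2b and Cdkn2a are neighbours on chromosome 4, 11669 bases apart in RefSeq's GRCm38.p6 annotation. Cdkn2b, the gene of the CDK4 and CDK6 inhibitor p15, read 6150 and 1737 (choline-deficient, then choline-sufficient) on 1 probe and 647.8 and 179.7 on the other. The probes gave nearly the same difference, 1.49 ± 0.20 and 1.52 ± 0.20, and the gene was 2.84-fold higher without choline. Cdkn2a read 59960 and 26057 on 1 probe (chromosome 4, 88920405 to 88920464) and 4277 and 1449 on the other (88920543 to 88920602). The differences of these probes were 0.87 ± 0.20 and 1.23 ± 0.20, and the gene was 2.07-fold higher (1.05 ± 0.20). The array's annotation assigns both Cdkn2a probes to NM_009877 and to NM_001040654, so p16 and p19ARF transcripts cannot be told apart by them. Of the neighbouring protein-coding genes, named here for their position, Mtap on one side differed by -0.17 ± 0.20. Dmrta1 on the other side was well above background only on the choline-deficient array. Its level there was 1.04-fold above the dimmest level called well above background on the other array. That leaves the direction and size of its difference unknown. Cdkn2b minus Cdkn2a was 0.46 ± 0.29, a value that no scaling constant can change.

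The 250 bases before the RefSeq start of Cdkn2b hold TGACGTCA, the cAMP response element, 46 bases before the start, shown in capitals (chr4:89311033-89311282, minus strand, GRCm38.p6). That motif stands in 1.5% of 32851 such windows and in 1 of the 13 windows of the 10 genes.
Cdkn2b: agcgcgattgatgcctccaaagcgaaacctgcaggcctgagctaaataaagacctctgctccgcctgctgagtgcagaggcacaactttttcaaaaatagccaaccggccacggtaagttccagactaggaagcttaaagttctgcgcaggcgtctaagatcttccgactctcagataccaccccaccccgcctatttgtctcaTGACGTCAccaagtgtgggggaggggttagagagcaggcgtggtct

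The Polycomb group is known to keep this locus silent. Of 12 measured Polycomb genes 1 was at least 1.5-fold higher (8.3%) and 2 lower (16.7%), beside 14.8% and 14.1% of all measured genes. Their median was -0.24. Bmi1, a subunit of Polycomb repressive complex 1, was lower (-0.77 ± 0.20, 2 probes from -0.83 to -0.71), and Ring1 of the same complex was higher (0.67 ± 0.20). The other CDK inhibitor genes stayed close to 0: Cdkn1b, the gene of p27, differed by 0.15 ± 0.20 with its 2 probes at -0.14 and 0.44, Cdkn2c by 0.31 ± 0.20, Cdkn2d by 0.07 ± 0.20 and Cdkn1c by -0.36 ± 0.20. None of these 4 was 1.5-fold apart. Among 16 genes of G1 cyclins, CDKs, E2F factors and RB proteins, the median was -0.03. At least 1.5-fold higher were 3 (18.8%) and lower 2 (12.5%), beside 14.8% and 14.1% of all measured genes. The cyclin D1 gene Ccnd1 was 3.59-fold higher (1.85 ± 0.20) and its kinase partner gene Cdk6 2.71-fold higher (1.44 ± 0.21). Cdk4, named after its value was seen, differed by -0.47 ± 0.20 (4 probes from -0.53 to -0.42). Its log2 levels were 4.04 and 4.50, against -3.69 and -5.13 for Cdk6. Cdk6, Cdkn2b and Cdkn2a were thus higher on the same array and Cdk4 was not. The Cdkn2a probes do not separate p16 from p19ARF. E2f5 was 2.20-fold higher and E2f2 1.79-fold lower.

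Cdkn1a, the gene of p21 and the best known arrest gene downstream of p53, was at least 1.5-fold higher without choline on 2 of its 3 probes, and the third, near background, had the opposite sign. The probe assigned to both RefSeq transcripts (chromosome 17, 29237377 to 29237436) was printed 10 times. Before scaling, its spots read between 1453 and 1655 on the choline-deficient array and between 597.4 and 671.8 on the choline-sufficient array. The difference of this probe was 0.97 ± 0.20, or 1.96-fold, and the 10 spots ran from 0.94 to 1.03 with an SD of 0.03. That SD describes spots on the same arrays, not replicate cultures. The second probe, assigned to an Ensembl transcript (ENSMUST00000122348.2), read 26.45 and 13.66, a difference of 0.62 ± 0.23. The third, assigned to RefSeq variant 2 alone (NM_001111099, position 62 of the transcript), read 6.84 and 7.53, a difference of -0.47 ± 0.31. The lowest signals called well above background were 4.16 and 4.26, so the third probe lies near the limit of the measurement. With the 3 probes averaged, Cdkn1a was at 0.38 ± 0.25 and not counted as higher. With its brightest probe alone it was at 0.97 and 7 of the 10 genes were counted as higher.

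The first 30 of the 60 bases of each Cdkn1a probe are given because the result depends on which of them is read.
Cdkn1a, both RefSeq transcripts: ctaagggagctcacaggacactgagcaatg
Cdkn1a, Ensembl transcript: tggggtagtttccatagtgacccgggtcct
Cdkn1a, RefSeq variant 2: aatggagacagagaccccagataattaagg

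**Figure D2:**
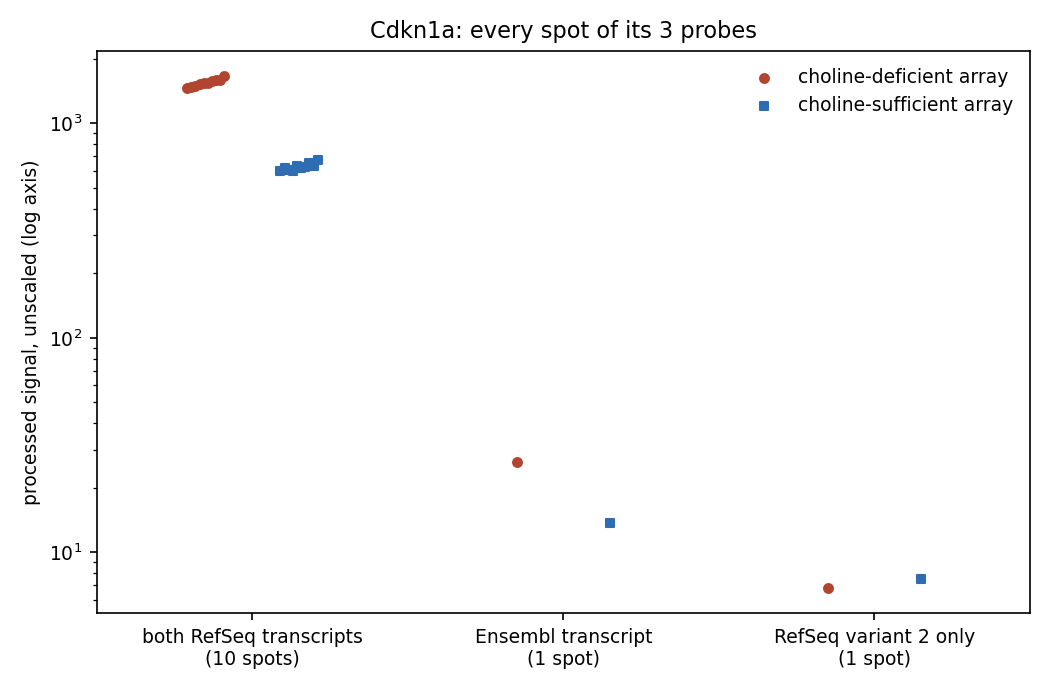
Processed signal of every Cdkn1a spot on a log axis, for its 3 probes, with circles for the choline-deficient and squares for the choline-sufficient array and spots spread sideways only to be visible. The 10 spots of the first probe lie between 1453 and 1655 on one array and between 597.4 and 671.8 on the other, and the third probe reads 6.84 and 7.53.

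RefSeq gives Cdkn1a a pair of start sites. The window before the upstream one (chr17:29090729-29090978, plus strand, GRCm38.p6) holds a p53 half-site followed directly by a second run of 10 bases that departs from the same consensus at 1 position, together shown in capitals, 51 bases before the start. The window before the downstream one (chr17:29093519-29093768, plus strand) holds no p53 half-site.
Cdkn1a upstream start: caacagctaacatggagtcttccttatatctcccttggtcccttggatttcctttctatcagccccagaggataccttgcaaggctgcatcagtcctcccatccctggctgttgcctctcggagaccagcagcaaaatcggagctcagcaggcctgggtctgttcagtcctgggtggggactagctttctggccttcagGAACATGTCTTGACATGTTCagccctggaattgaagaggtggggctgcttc
Cdkn1a downstream start: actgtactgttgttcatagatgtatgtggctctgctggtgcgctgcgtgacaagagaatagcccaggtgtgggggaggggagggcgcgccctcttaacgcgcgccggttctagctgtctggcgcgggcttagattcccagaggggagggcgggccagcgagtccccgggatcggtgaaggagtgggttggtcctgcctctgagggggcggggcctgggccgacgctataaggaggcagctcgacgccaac

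The variant 2 probe and the shared probe start 9391 bases apart on mm9, and the whole gene spans 9744 bases in GRCm38.p6. Which start site the signal of the shared probe comes from was not measured here. A half-site with such a neighbour, no gap between them and at most 1 mismatch was found in 25 of the 32851 windows (0.08%), and 2 of the 10 genes have one. The other is Ccng1 (chr11:40755287-40755536, minus strand), where the pair begins 195 bases before the start.
Ccng1: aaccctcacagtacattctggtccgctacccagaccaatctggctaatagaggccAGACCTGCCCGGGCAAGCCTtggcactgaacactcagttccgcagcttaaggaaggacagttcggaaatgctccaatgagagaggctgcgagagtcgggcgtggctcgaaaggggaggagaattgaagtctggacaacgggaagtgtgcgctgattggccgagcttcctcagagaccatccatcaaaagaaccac

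Ccng1, the gene of cyclin G1, which brings protein phosphatase 2A to MDM2, read 1596 and 1249 and differed by 0.02 ± 0.20 after scaling. Mdm2 read 16643 and 18386 and differed by -0.47 ± 0.20, or 1.39-fold lower without choline. Neither of these 2 well-known direct p53 targets was 1.5-fold higher without choline under any of the ways of processing tried. Mdm2 lay between -0.59 and -0.20 and Ccng1, whose sign depends on the scaling, between -0.10 and 0.29. Fas minus Mdm2 was 3.27 ± 0.29, which is the same for any scaling constant.

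Sesn1, the gene of sestrin 1, a leucine-responsive inhibitor of mTORC1 signalling, read 2249 on the choline-deficient and 851.8 on the choline-sufficient array. It was 2.10-fold higher, at 1.07 ± 0.20. The related genes did not share 1 direction. Sesn2, also a p53 and ATF4 target, was 1.57-fold lower (-0.65 ± 0.20), while Sesn3, a FOXO target, differed by 0.55 ± 0.20 and the cyclin G2 gene Ccng2 by 0.35 ± 0.20. Sesn1 minus Ccng1 was 1.05 ± 0.29.

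The GADD45 genes encode small stress proteins that bind PCNA, CDK1 and the kinase MTK1 (Map3k4), and they differed in opposite directions. Gadd45g, often linked to differentiation and cytokine signals, read 13990 and 5228 and was 2.13-fold higher without choline (1.09 ± 0.20). Gadd45b, a target of NF-kB and TGF-beta, read 5240 and 2663 and was 1.56-fold higher (0.65 ± 0.20). It lay close to the 1.5-fold limit, and was 0.53 with median scaling. Gadd45a, the p53 target of the family and also a target of ATF4, read 6060 and 9793 and was 2.03-fold lower (-1.02 ± 0.20). Gadd45g minus Gadd45a was 2.11 ± 0.29 and Gadd45b minus Gadd45a 1.67 ± 0.29, values that do not depend on a scaling constant. Each of the 3 genes rests on a single spot per array. Among 9 genes of the p38 and JNK kinases that these proteins feed, the median was 0.05 and 0 were at least 1.5-fold lower. The shares of all measured genes were 14.8% higher and 14.1% lower by that much. Those of the 9 at least 1.5-fold higher were 2 genes (22.2%). They were Map2k6, the kinase gene for p38, at 4.18-fold (2.06 ± 0.20, 2 probes from 1.81 to 2.32) and the p38 beta gene Mapk11 at 2.60-fold (1.38 ± 0.20), while Map3k4 itself differed by 0.42 ± 0.20 (named after its value was seen).

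The windows before Gadd45b and Gadd45g each hold CACGTG (an E-box, which contains the hypoxia response core ACGTG on both strands), a CCAAT box and TATAAA, and the Gadd45a window holds a CCAAT box, a p53 half-site and neither CACGTG nor TATAAA. Fas also holds CACGTG, 110 bases before its start. CACGTG stands in 3 of the 13 windows of the 10 genes and in 6.0% of all windows, TATAAA in 2 of 13 and in 12.4%, CCAAT in 7 of 13 and in 33.8%, and a p53 half-site in 5 of 13 and in 7.1%. Both strands were read, and the motifs were chosen after the sequences were seen. The windows of the GADD45 genes are shown because these genes differed in opposite directions, and that of Fas for its size of difference. The motifs do not sort the 10 genes by direction: CACGTG was not found before Cdkn2a, Cdkn2b or Sesn1, which were also higher, and a p53 half-site stands before Sesn1 too. Capitals mark CACGTG in the first 3 and the p53 half-site in Gadd45a, and the intervals on GRCm38.p6 are chr19:34290409-34290658, plus strand, chr10:80929841-80930090, plus strand, chr13:51846425-51846674, plus strand and chr6:67037408-67037657, minus strand.
Fas: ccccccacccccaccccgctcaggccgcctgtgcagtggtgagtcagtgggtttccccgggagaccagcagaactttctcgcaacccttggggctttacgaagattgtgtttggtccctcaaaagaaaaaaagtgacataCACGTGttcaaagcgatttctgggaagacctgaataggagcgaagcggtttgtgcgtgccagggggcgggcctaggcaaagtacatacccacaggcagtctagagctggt
Gadd45b: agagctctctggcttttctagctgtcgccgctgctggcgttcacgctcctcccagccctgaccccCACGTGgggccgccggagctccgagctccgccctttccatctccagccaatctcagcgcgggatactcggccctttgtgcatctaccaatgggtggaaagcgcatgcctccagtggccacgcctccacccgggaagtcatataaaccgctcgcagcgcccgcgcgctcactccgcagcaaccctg
Gadd45g: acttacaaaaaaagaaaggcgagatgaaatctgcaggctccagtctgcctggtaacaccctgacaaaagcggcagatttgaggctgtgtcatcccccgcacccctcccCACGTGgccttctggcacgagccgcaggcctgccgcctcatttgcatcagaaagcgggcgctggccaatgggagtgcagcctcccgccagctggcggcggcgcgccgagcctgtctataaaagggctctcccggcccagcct
Gadd45a: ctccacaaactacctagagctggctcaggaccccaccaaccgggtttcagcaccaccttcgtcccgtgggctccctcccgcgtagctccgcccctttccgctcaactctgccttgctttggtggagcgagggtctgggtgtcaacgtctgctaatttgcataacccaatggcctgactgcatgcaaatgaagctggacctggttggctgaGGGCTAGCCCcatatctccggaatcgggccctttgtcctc

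**Figure D3:**
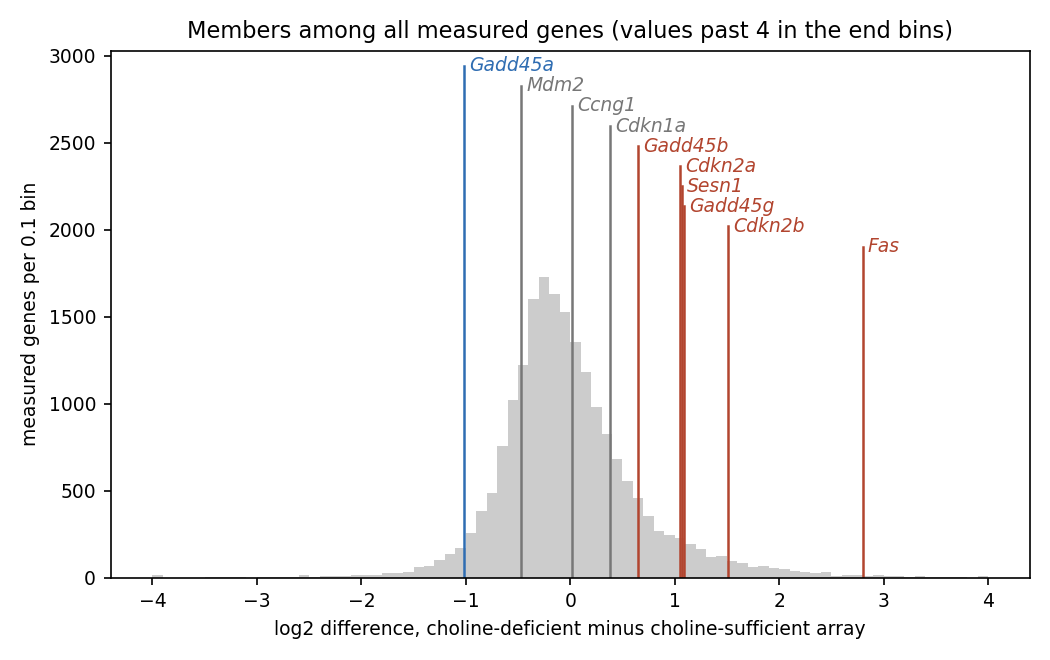
Histogram of the log2 difference (choline-deficient minus choline-sufficient array) of the 19818 measured genes in bins of 0.1, with a line and a name for each of the 10 genes. Line heights carry no value. Red lines are at least 1.5-fold higher, blue at least 1.5-fold lower and grey in between. Fas at 2.80 stands far to the right and Gadd45a at -1.02 to the left, with Mdm2, Ccng1 and Cdkn1a between them near the bulk of the genes.

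Further genes that p53 is known to switch on differed in both directions. Of 30 such genes, all measured, 6 were at least 1.5-fold higher and 8 lower, beside 14.8% and 14.1% of all genes. Their median was -0.19, against -0.10 over all genes. The lower side held Tigar, which restrains glycolysis (3.15-fold lower, -1.66 ± 0.20, its 2 probes at -1.66 and -1.65), the death gene Pmaip1 (-1.06 ± 0.21) and the receptor gene Eda2r (-1.06 ± 0.22). Pmaip1 and Eda2r were dim, at log2 levels of -5.05 and -5.97 without choline and -3.99 and -4.91 with it. The higher side held the kinase gene Plk2 (1.07 ± 0.20) and, named after their values were seen, the antiproliferative gene Btg2 (1.05 ± 0.20), Cd82 (0.90 ± 0.20), Perp (0.77 ± 0.20), Pltp (0.68 ± 0.20) and Phlda3 (0.63 ± 0.20). Also lower, and named after their values were seen, were Trp53inp1 (-0.98 ± 0.21, its 2 probes at -1.30 and -0.66), the apoptosis gene Bax (-0.75 ± 0.20, 1.68-fold), Ei24 (-0.71 ± 0.20) and Gdf15 (-0.70 ± 0.20). Sesn2, given above, was the remaining lower gene. Among 17 regulators of p53 the median was -0.15. By 1.5-fold or more, 2 were higher (11.8%) and 1 lower (5.9%), again beside 14.8% and 14.1% of all genes. Trp53 itself, named after its value was seen, differed by -0.15 ± 0.20. The kinase gene Hipk2 (0.70 ± 0.20) and Trp53bp1 (0.69 ± 0.20, its 2 probes at 0.21 and 1.17) were higher, and the p53 ubiquitin ligase gene Cop1 was lower (-0.80 ± 0.20). Among 15 proliferation genes Mki67 was 1.81-fold higher (0.85 ± 0.20), the other 14 were less than 1.5-fold apart, and the median was 0.01.

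**Figure D4:**
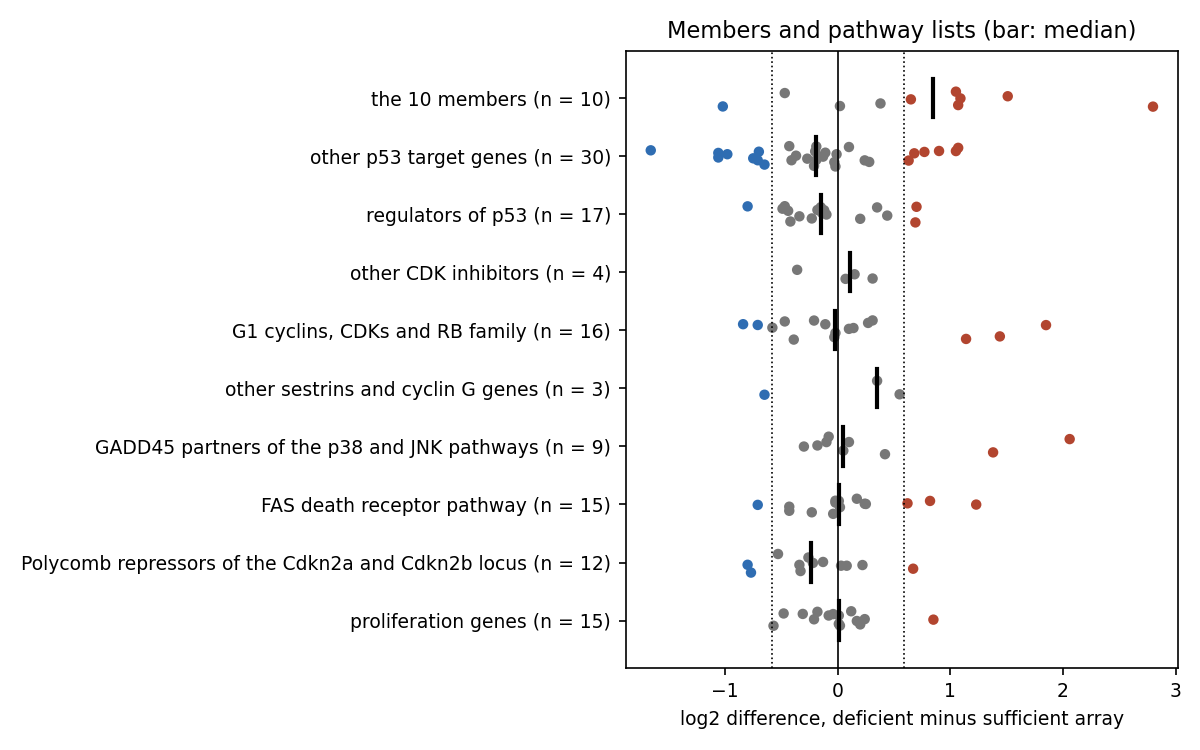
Log2 difference (choline-deficient minus choline-sufficient array) of the 10 genes and of 9 lists of related genes, 1 point per measured gene, with a black bar at each median and dotted lines at 1.5-fold. Points are spread up and down only to be visible. The median of the 10 genes is 0.85, and those of the 9 lists lie between -0.24 and 0.35.

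Cell type markers differed between the arrays as well. Of 6 fibroblast markers 5 were measured and 4 were higher without choline by 1.5-fold or more, beside 14.8% of all genes. Lum was not well above background. Thy1, 1 of the 4 and also a ganglion cell marker here, had log2 levels of -6.60 and -8.08. The second lies near the dimmest signals called well above background, which limits its difference (1.48 ± 0.35). The summed level of the 6, relative to each array's 75th percentile, was 65.41 on the choline-deficient and 7.61 on the choline-sufficient array. Most of both sums is the collagen gene Col1a2, at log2 levels of 5.96 and 2.87, and the median log2 difference of the 5 measured markers was 1.79. For 6 Muller glia markers the sums were 2.60 and 1.23, for 5 macrophage and leukocyte markers 0.63 and 0.57, for 5 pigment epithelium markers 2.10 and 1.96, for 6 ganglion cell markers 0.0422 and 0.0531, and for 12 cone and rod markers 0.43 and 0.30. Of these 12, 6 were measured on both arrays (Opn1mw, Arr3, Gnat2, Pde6h, Gngt2 and Gnat1). At least 1.5-fold higher without choline were Gngt2 (0.72 ± 0.20) and, by value, Pde6h (0.87 ± 0.37). The Pde6h log2 levels of -7.29 and -8.16 lie near the dimmest signals called well above background, so no direction is read from them. Cnga3 was well above background on the choline-deficient array only, and the other 5, Crx, Nrl, Opn1sw and Rcvrn among them, on neither array. The part of the fibroblast markers' difference in the differences of the 10 genes was not tested.

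**Figure D5:**
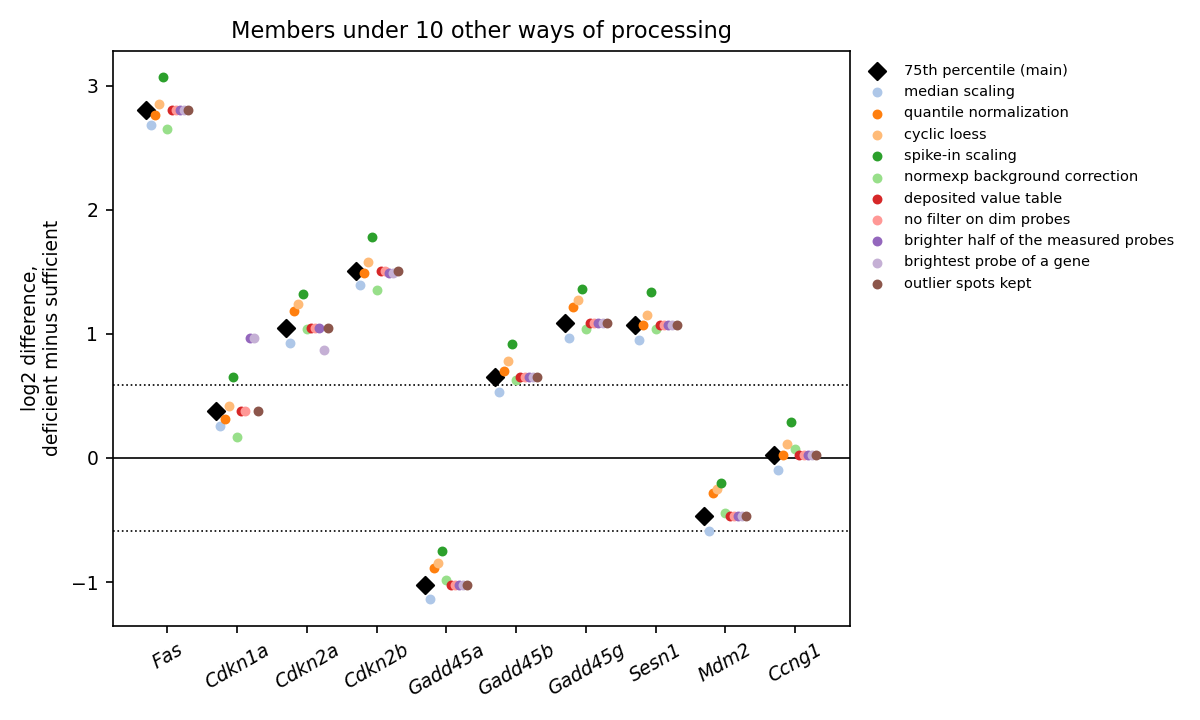
Log2 difference (choline-deficient minus choline-sufficient array) of the 10 genes as processed here (black diamonds) and under 10 other ways of processing (coloured points), with dotted lines at 1.5-fold. Fas, Cdkn2a, Cdkn2b, Gadd45g and Sesn1 stay above the upper line and Gadd45a below the lower line throughout, whereas Cdkn1a, Gadd45b and Mdm2 cross a line with some of them.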

How the data were processed

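RNA of 661W cells was measured on 1 Agilent single-colour array per group, grouped by the treatment in the labels. Per the submitters' processing notes, spots were quantified by Agilent Feature Extraction (version 12.1.1.1). Their intensity values are background-subtracted and detrended within the array, per the file headers, with no normalization between arrays. The deposited value table holds a ratio, linear and not centred by gene, equal to the processed signal over 1 constant per array (medians 0.0358 without and 0.0337 with choline). No source used here describes that step.

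Control spots and outlier spots (92 and 86) were left out, 0 of them from the 10 genes. Log2 signals were set to each array's 75th percentile, spots averaged per probe and measured probes per gene. A probe was measured when at least 50% of its spots were well above background on both arrays and none was saturated (26463 of 39429 probes). Errors of probes were averaged, not reduced by their number. Between spots of the 268 probes with 8 or more usable spots, the SD of the difference had a median of 0.05. On the 2 arrays 70.7% and 68.5% of spots were well above background. The number of arrays limits the precision.

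The 10 genes, the lists and the alternatives were chosen with earlier results of these data known. The 1.5-fold size is 0.58 on the log2 scale. The text names all 10 genes, every gene of lists of up to 5, otherwise up to 4 genes per list with the largest difference among those at least 1.5-fold apart and up to 2 above background on 1 array, with exceptions marked. A few genes that qualify are left unreported here. Genes with a pattern like a member's are not named, because 2 arrays give 1 difference per gene. Of the 9 lists, 2 genes stand in 2 of them. Promoter windows come from RefSeq (GRCm38.p6), and all 10 genes matched.

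Alternatives were median, quantile, cyclic loess and spike-in scaling (5 probes), normexp with an offset of 50 (limma 3.58.1 in R 4.3.3), the deposited value table, no filter or the upper 50% of measured probes by signal, the brightest probe, outlier spots kept, a 2-fold size and a size over 2 errors. Other steps used Python 3.11.15, numpy 2.4.6 and pandas 2.3.3 and were tested on simulated data.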

Additional observations from a re-analysis of the deposited data

How the results depend on the processing

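No paired analysis was possible because each group has 1 array. Across the 10 other ways of processing, Fas, Cdkn2a, Cdkn2b, Gadd45g and Sesn1 kept their direction and stayed at least 1.5-fold higher. Gadd45a stayed at least 1.5-fold lower. Some of these settings could not move the values. The 10 genes had 0 outlier spots, all their probes were measured, and the deposited value table gave the same differences. For Fas, Gadd45g, Sesn1 and Gadd45a, with 1 probe each, choosing probes by signal also left the value unchanged. The number of the 10 genes counted as higher was 6 as processed, 5 with median scaling (without Gadd45b) and with a 2-fold size, and 7 with spike-in scaling, with the brightest probe and with the upper 50% of probes by signal (each with Cdkn1a). The number lower was 1 as processed and 2 with median scaling and with a size over 2 errors (22.6% of all genes), Mdm2 being the second gene. The median of the 10 genes was 0.85 as processed and 1.12 with spike-in scaling, which moved all genes by 0.27. Cdkn1a ran from 0.17 with normexp to 0.97 with its brightest probe, because that setting leaves out its dim probes. The Ccng1 difference was -0.10 with median scaling. Medians of the lists of other p53 targets and of p53 regulators were 0.08 and 0.12 with spike-in scaling, above 0. Of all genes, 12.0% were higher and 20.3% lower with median scaling, 24.2% and 6.0% with spike-in scaling, 15.2% and 14.5% with the brightest probe, 12.2% and 15.5% with the upper 50% of probes, and 7.67% and 3.88% at 2-fold. Signal near background limits the third Cdkn1a probe.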

Other observations

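The paired p53 half-sites described for Cdkn1a and Ccng1 give a list of genes chosen by sequence alone, with no use of expression. RefSeq's windows name 25 genes with such a pair in the 250 bases before a start site, and 8 of them, Cdkn1a and Ccng1 included, were measured on both arrays. Of these 8, 1 was at least 1.5-fold higher without choline, the spectrin gene Sptbn4 at 0.68. Lower were 2, the unnamed gene model Gm29797 at -0.71 and the ribosomal protein-like gene Rps27l, a known p53 target, at -0.61. Of all measured genes, 14.8% were higher and 14.1% lower by that much. Cdkn1a was counted here at 0.38, with its 3 probes averaged, and its brightest probe alone was at 0.97. The median of the 8 was 0.03, against -0.10 over all measured genes. This list was made after the values of the 10 genes were seen.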
